A study of Caenorhabditis elegans with 54 samples.

Results

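The major sperm protein genes of Caenorhabditis elegans were taken as every gene whose symbol is msp- followed by digits. Of the 46003 gene names counted in the larger of 2 library sets, 35 met this rule. A RefSeq gene table of assembly WBcel235 lists 31 of them as protein coding and 4 (msp-37, msp-42, msp-52 and msp-71) as pseudogenes. By that annotation 15 members lie on chromosome II and 20 on chromosome IV in 2 clusters of 10. The coding length is 384 nt for 28 of the protein-coding members, 234 nt for msp-58 and msp-74, and 360 nt for msp-32. The members are near-identical copies, so a read can often be assigned to several of them, and how reads were divided among single members is uncertain. Sums over the family do not depend on that division and are given first.

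Major sperm protein (MSP) is the most abundant protein of nematode sperm. Nematode sperm crawl without actin, and MSP filaments that assemble at the front of the pseudopod and are taken apart at its base drive the movement. MSP is made in spermatocytes, packed into fibrous bodies until the sperm matures, and is also released from sperm as a signal that triggers oocyte maturation and contraction of the gonadal sheath. In hermaphrodites the genes are transcribed while the larval germ line makes sperm, before it turns to oocytes. Small RNAs of the 22G class are made on mRNA templates by RNA-dependent RNA polymerases and are loaded onto Argonaute proteins. MUT-16 scaffolds the perinuclear foci where many of them are made, PRG-1 is the Piwi Argonaute that binds germline piRNAs, HRDE-1 is the nuclear Argonaute of inherited germline silencing, and ERGO-1 is the Argonaute of a 26G class made in oocytes and embryos.

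The study measured mRNA and small RNAs of 18 to 30 nt in whole day 1 adults, with 8000 animals per sample in the larger set, set 2, grown at 20 °C to about 64 h. Set 2 holds 3 mRNA and 3 small RNA libraries of each of 8 strains, 48 in all. Set 1 holds 3 small RNA libraries for the single mutants ergo-1(tm1860) and, as its counterpart, prg-1(n4357), whose labels name more than 1 growth temperature without tying it to a library. In set 2, mut-16(pk710) was combined with cmp263, a deletion of both sosi-1 and eri-6[e-f] termed the double deletion, with the sosi-1 deletion cmp262 and with the eri-6[e-f] deletion cmp261. Below, mut-16 stands for this mutant allele, and each deletion strain was also measured without it. The remaining strains were prg-1(n4357); ergo-1(tm1860) and prg-1(n4357); hrde-1(tm1200), which share the prg-1 allele. Neither wild type nor mut-16 alone was analysed here, so each mut-16 comparison is between strains that share a deletion.

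Total counts per library were 13217989 to 93976553 for mRNA and 8002988 to 42010626 for small RNA. Reads on the family numbered 484 to 209949 per mRNA library, 220 to 15466 per set 2 small RNA library and 417 to 1451 per set 1 library. Markers of oocytes, other germ cells, intestine, body wall muscle and neurons were detected in the mRNA of every strain. One label stands out: the third prg-1; ergo-1 small RNA library is described as mRNA selected, yet its summed msp level of 203 CPM was near the 223 and 225 CPM of the others. The first prg-1; hrde-1 small RNA library stood apart from its group over all features, and results that change without it are given both ways.

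Summed msp mRNA was lower in the deletion strains than in any strain that carried mut-16 or prg-1. Levels are in CPM (counts scaled to a common library size) after TMM scaling, which sets library sizes by the bulk of features. The summed level was 703, 679 and 762 CPM in double-deletion mut-16, against 102, 101 and 113 CPM in the double deletion. It was 969, 850 and 928 CPM in sosi-1 mut-16, against 240, 309 and 229 CPM in sosi-1. It was 532, 608 and 710 CPM in eri-6[e-f] mut-16, against 98.2, 84.3 and 39.01 CPM in eri-6[e-f]. In each background the mut-16 libraries lay wholly above those without it. The ratio of the means was 6.77 in the double deletion (6.00 to 7.51 over pairs of libraries), 3.53 in sosi-1 (2.76 to 4.23) and 8.35 in eri-6[e-f] (5.41 to 18.2). The wide range in eri-6[e-f] comes with the third library, which had 484 msp reads in all, while its other sperm genes summed to 180 CPM, against 149 and 122 CPM in the first and second.

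The prg-1 strains held the most msp mRNA. Together the 35 members had 1511, 1785 and 1586 CPM in prg-1; ergo-1, against 2691, 2884 and 3764 CPM in prg-1; hrde-1. The 2 groups did not overlap, and the mean ratio was 0.523 (0.401 to 0.663). Whole animals were sequenced, so fewer sperm, less msp RNA per sperm and other differences between the animals, such as stage, cannot be told apart. Summed oocyte markers averaged 6764 CPM in prg-1; ergo-1 and 3444 CPM in prg-1; hrde-1, and a difference in stage was not tested.

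**Figure D1:**
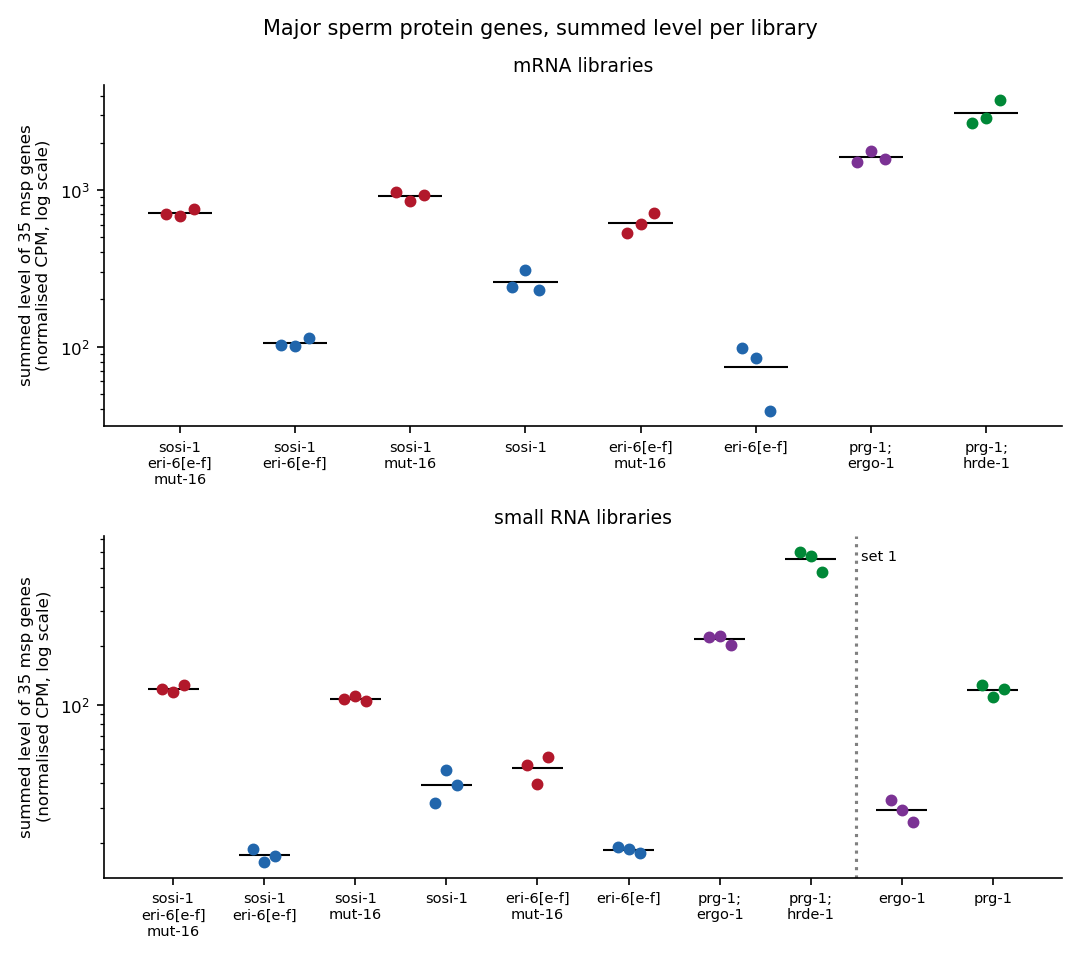
Summed level of the 35 msp genes in each library, in normalised CPM on a log axis, with mRNA above and small RNA below. Points are libraries, bars are means of 3 and colours mark mut-16 strains (red), deletion strains (blue), ergo-1 strains (purple) and other prg-1 strains (green). The prg-1; hrde-1 libraries are highest in both assays, and every mut-16 library lies above the libraries of its own deletion background.

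The family's mRNA was spread over many members. Averaged over the 8 strains, the 28 members of coding length 384 nt ranged from 2.26 CPM for msp-63 to 69.9 CPM for msp-152, with a median of 31.9 CPM. After msp-152 the highest were msp-31 at 51.7 CPM and msp-50 at 47.5 CPM. The 10 highest members took 48.7% to 52.9% of the family's mRNA, depending on the strain, and no member took more than 8.15%. The top member was msp-152 in every mut-16 and prg-1 strain, msp-57 in the double deletion and in eri-6[e-f], and msp-59 in sosi-1.

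The lowest members, by CPM and not by length, were pseudogenes and copies of another length. Of the tested members, msp-74, with its coding length of 234 nt, averaged 0.203 CPM, and the pseudogenes msp-42 and msp-71 averaged 0.628 and 0.690 CPM. The pseudogene msp-37 and the protein-coding msp-32 averaged 0.0316 and 0.0824 CPM and were too low to test, which left 33 of 35 members. The pseudogene msp-52 had 3.98, 7.68 and 8.31 CPM in double-deletion mut-16, against 1.08, 0 and 2.00 CPM in the double deletion. Its libraries differ more than those of most members, with a value of 0 between 2 that are not.

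Reads assigned to chromosome II members made up a larger part of msp mRNA with mut-16 in the double deletion and in sosi-1. They took 44.2% of the family's mRNA in double-deletion mut-16 (43.7% to 44.5% over 3 libraries), against 38.4% in the double deletion (37.6% to 38.9%). Their share was 45.2% in sosi-1 mut-16 (44.6% to 45.5%), against 33.9% in sosi-1 (33.3% to 34.6%). It was 44.1% in eri-6[e-f] mut-16 (40.4% to 46.4%), against 36.9% in eri-6[e-f] (33.7% to 41.1%). The libraries did not overlap in the double deletion or in sosi-1, and did overlap in eri-6[e-f]. Whether copies on II and IV share reads was not tested. Unlike the family sum, a share by chromosome may depend on how reads were divided.

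**Figure D2:**
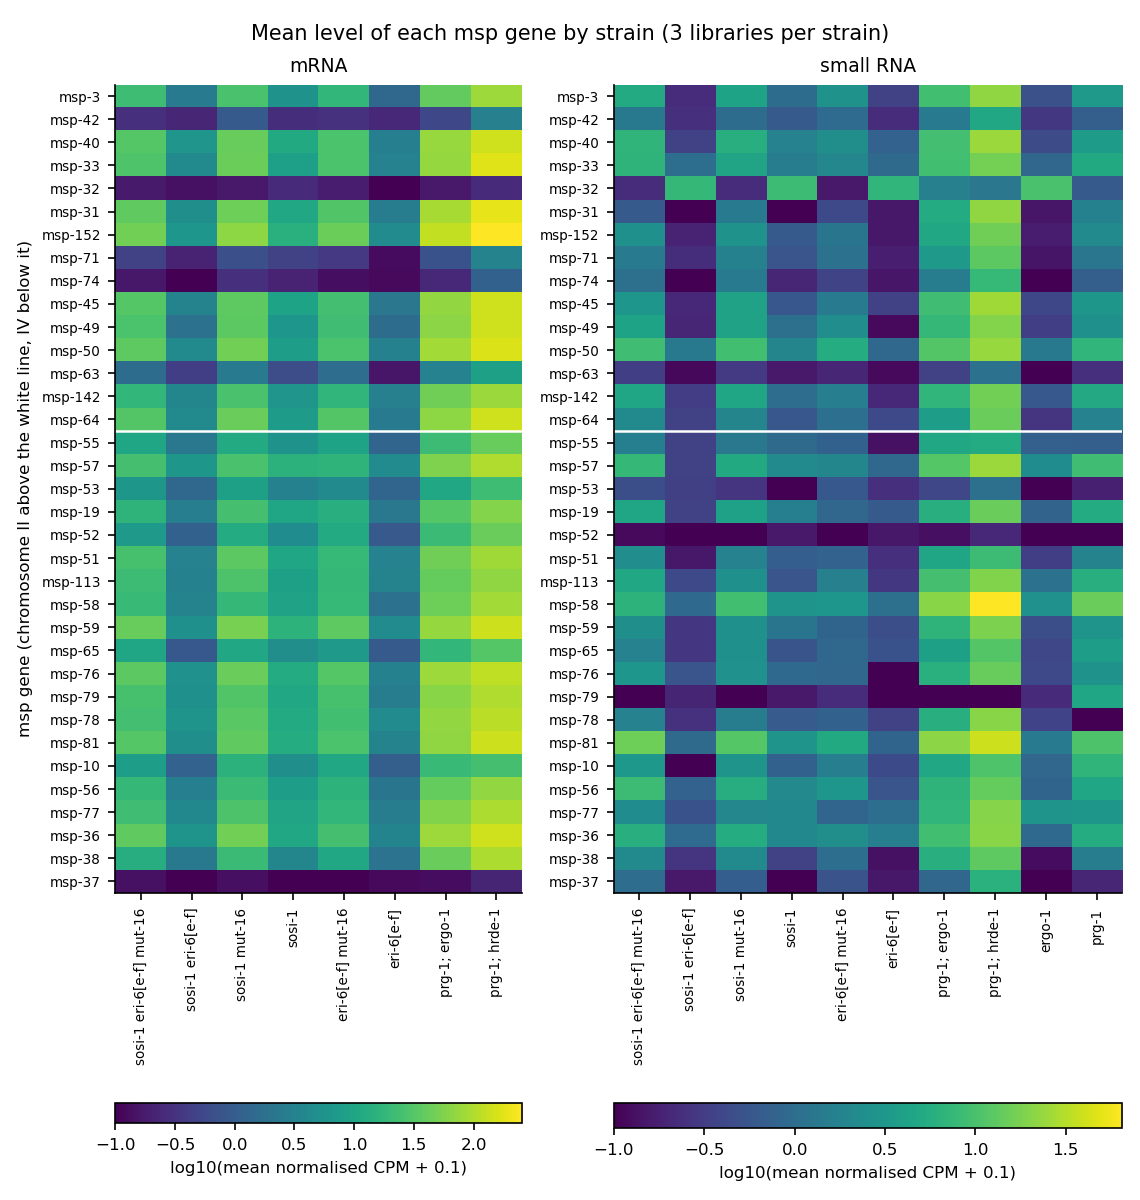
Mean level of each msp gene (rows) in each strain (columns), as log10 of normalised CPM plus 0.1, for mRNA on the left and small RNA on the right. Rows are grouped by chromosome, with II above the white line and IV below it. In mRNA most rows change together across strains, while in small RNA msp-32 is high where the other rows are low.

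Member by member, mut-16 strains had more msp mRNA in all 3 backgrounds. A member was called when the quasi-likelihood test of edgeR gave a Benjamini-Hochberg adjusted p below 0.05 over all 15376 features tested and the log2 fold change was at least 1 in size. In eri-6[e-f] mut-16 over eri-6[e-f], 31 of 33 tested members were called higher, where 16.2% of all features were called higher and 9.48% lower. Their median log2 fold change was 3.11, against 0.06 for all features. In sosi-1 mut-16 over sosi-1, 29 of 33 were called higher against 10.4% of all features (3.24% were called lower), with medians of 1.72 and 0.04. In double-deletion mut-16 over the double deletion, 32 of 33 were called higher against 28.1% (22.1% lower), with medians of 2.74 (2.71 with msp-74 at its bound) and 0.09. Averaged over the backgrounds, all 33 were called higher, at log2 fold changes of 1.2 to 3.49 with a median of 2.51, against 13.2% of all features (4.7% lower) and a median of 0.06. Library by library, 30, 31 and 32 of the 33 members had every mut-16 library above every library without it in eri-6[e-f], sosi-1 and the double deletion, in that order. The share of all features that separate in this way was not computed, here or for the like counts below. Such counts therefore only describe the members.

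The member with the largest mean mut-16 effect was msp-49, on chromosome II. Its mRNA stood at 26.9, 27.4 and 29.0 CPM in double-deletion mut-16, against 1.53, 1.65 and 2.12 CPM in the double deletion. It was 38.0, 33.4 and 34.9 CPM in sosi-1 mut-16, against 5.94, 7.36 and 5.03 CPM in sosi-1. In eri-6[e-f] mut-16 it reached 22.7, 19.6 and 26.6 CPM, against 1.90, 1.80 and 0.806 CPM in eri-6[e-f]. No mut-16 library overlapped a library without it in any of the backgrounds. By edgeR its mean log2 fold change was 3.49 ± 0.13 (SE, adjusted p = 6.94e-17). Next came msp-3 at 3.12 ± 0.14 (adjusted p = 1.60e-15), also on chromosome II.

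The most abundant member, msp-152, followed the same pattern. It had 44.6, 45.6 and 53.5 CPM in double-deletion mut-16, against 5.68, 4.87 and 7.63 CPM in the double deletion. It had 71.4, 64.7 and 66.8 CPM in sosi-1 mut-16, against 13.6, 17.3 and 11.8 CPM in sosi-1. Its groups were separate in both. At the other end, msp-57 had 26.7, 26.2 and 27.2 CPM in sosi-1 mut-16, against 12.9, 19.02 and 13.9 CPM in sosi-1. Those libraries did not overlap either, but its log2 fold change there of 0.80 ± 0.22 was below 1. Over the 3 backgrounds msp-57 was called, with the second smallest mean effect of 1.57 ± 0.13 (edgeR, adjusted p = 4.19e-10).

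Some rare copies had small mut-16 effects in part of the backgrounds. The pseudogene msp-42 had 0.0914, 0.216 and 0.292 CPM in double-deletion mut-16, against 0.0728, 0.139 and 0.182 CPM in the double deletion, groups that overlap. It was called in the mean effect, at 1.2 ± 0.38 (edgeR, adjusted p = 0.00942), and in sosi-1, but not in the double deletion (0.91 ± 0.59) or eri-6[e-f] (0.64 ± 0.86). The pseudogene msp-71 was not called in sosi-1 (0.62 ± 0.43) and had 0.366, 0.293 and 0.437 CPM in double-deletion mut-16, against 0.131, 0.139 and 0.0605 CPM in the double deletion, with no overlap (1.51 ± 0.48, edgeR adjusted p = 0.00740). The short copy msp-74 had 8 reads in double-deletion mut-16 and 0 in the double deletion, at least 2.68-fold higher if 3 reads are taken as the limit over a group at 0. Its mean effect of 1.71 ± 0.64 (edgeR, adjusted p = 0.0252) was no longer called without the first or the second eri-6[e-f] mut-16 library, without the first double-deletion library, or with DESeq2, where it was 1.54.

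The largest effects within single backgrounds came from low-count members in eri-6[e-f] and from well-covered members in sosi-1. The pseudogene msp-52 had a log2 fold change of 4.09 ± 0.77 in eri-6[e-f] (edgeR, adjusted p = 0.000220) and was not called in sosi-1. The protein-coding msp-63 had 86 reads in eri-6[e-f] mut-16, against 2 reads in eri-6[e-f], a ratio of 28.4 with a 95% counting interval of 7.62 to 238, which covers counting error only. In sosi-1 the largest effects were those of msp-50 (2.62 ± 0.24), msp-38 (2.57 ± 0.25) and msp-49 (2.53 ± 0.21). In the double deletion msp-49 (4.01 ± 0.23) and msp-65 (3.69 ± 0.23) led the members that had reads in both groups. The smallest called effect in eri-6[e-f] was that of msp-53 (1.79 ± 0.35, edgeR adjusted p = 0.000344).

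By chromosome, the median of the mean mut-16 effect was 2.84 for tested members on II and 2.36 for those on IV. The medians were 2.16 and 1.5 in sosi-1, 2.93 and 2.69 in the double deletion, and 3.29 and 2.92 in eri-6[e-f]. Such medians also rest on the uncertain division of reads among members.

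The mut-16 effect differed in size between backgrounds for 21 of 33 members, but 60.1% of all features passed that interaction test, so the count is near the background. The median gap between a member's highest and lowest effect was 1.44, against 1.45 for all features. All 21 called members had their smallest effect in sosi-1, and 16 had their largest in eri-6[e-f]. For msp-65 the log2 fold changes were 3.69 in the double deletion, 1.18 in sosi-1 and 2.96 in eri-6[e-f]. It had 9.10, 9.39 and 11.6 CPM in double-deletion mut-16, against 0.801, 0.812 and 0.666 CPM in the double deletion. In sosi-1 mut-16 it had 9.81, 11.4 and 10.7 CPM, against 4.06, 4.22 and 5.87 CPM in sosi-1. Its levels in the 2 mut-16 strains were thus alike, and sosi-1 stood above the double deletion in every library.

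**Figure D3:**
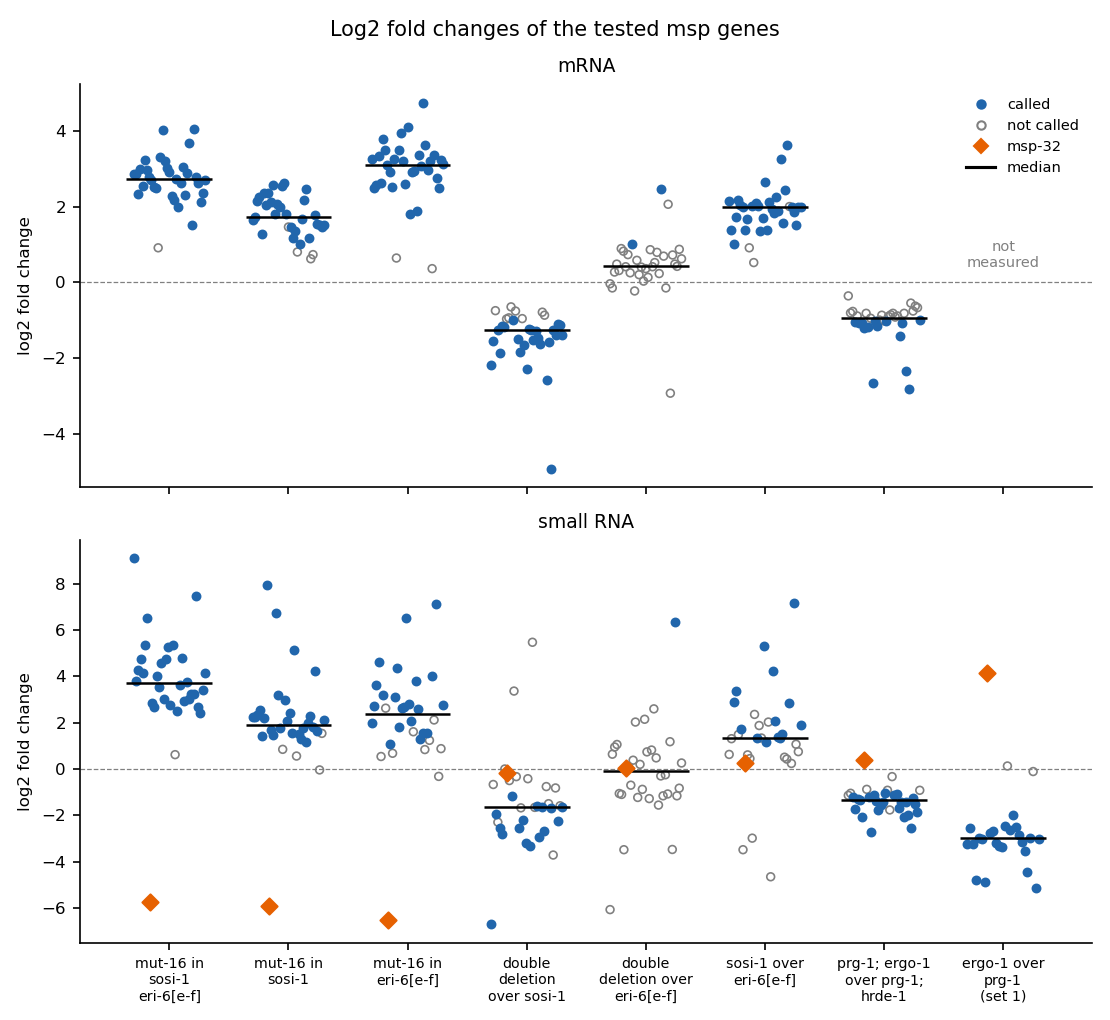
Fitted log2 fold change of each tested msp gene in 8 comparisons, with mRNA above and small RNA below. Filled points passed the call rule, open points did not, bars are medians and diamonds mark msp-32. Where a strain had no read of a member the fitted value is not a bound on the change. In mRNA all members of the mut-16 comparisons lie above 0. In small RNA msp-32 lies near -6, msp-77 lies just below 0 in sosi-1 and eri-6[e-f], and the others lie above 0.

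Among the 3 deletion strains, sosi-1 held the most msp mRNA. These comparisons share libraries with each other and with the mut-16 comparisons, so they are not independent of them. The family summed to 102, 101 and 113 CPM in the double deletion, against 240, 309 and 229 CPM in sosi-1, a mean ratio of 0.407. Of 33 members 25 were called lower, against 24.7% of all features, with a median log2 fold change of -1.27 against -0.17. In 32 of 33 members the double-deletion libraries all lay below the sosi-1 libraries. The largest called difference between members with reads in both strains was that of msp-65 (-2.59 ± 0.23, edgeR adjusted p = 2.83e-08), followed by msp-52 (-2.30 ± 0.66). For msp-74 there were 0 reads in the double deletion and 9 in sosi-1, at least 5.03-fold lower. The smallest differences, not called, were -0.65 for msp-38, -0.75 for msp-142 and -0.76 for msp-42.

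In sosi-1 over eri-6[e-f], 30 of 33 members were called higher, against 20.2% of all features, with medians of 1.99 and 0.04. The summed level was 3.51 times as high in sosi-1 as in eri-6[e-f] (2.33 to 7.91 over pairs of libraries). The highest values were those of msp-71, msp-63 and msp-52, each with few reads in eri-6[e-f]. The ratio of msp-63 was 10.3, from 42 reads in sosi-1 and 2 in eri-6[e-f] (95% counting interval 2.69 to 88.2). That of msp-71 was 14.3, from 29 reads in sosi-1 and 1 in eri-6[e-f] (2.37 to 583). The members not called were msp-38 (0.91), msp-42 (0.52) and msp-74, and the smallest called change, that of msp-142 (1.01 ± 0.26, edgeR adjusted p = 0.00227), was 0.81 without the third eri-6[e-f] library and 0.88 without the second sosi-1 library.

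Few members were called between the double deletion and eri-6[e-f]. Summed over the family, mRNA was 102, 101 and 113 CPM in the double deletion, against 98.2, 84.3 and 39.01 CPM in eri-6[e-f], a mean ratio of 1.43 that lay between 1.03 and 2.90 over pairs of libraries. In this comparison 2 of 33 members were called, both higher, against 8.72% of all features. For msp-40 the levels were 5.90, 5.80 and 5.69 CPM in the double deletion, against 3.66, 2.90 and 2.02 CPM in eri-6[e-f] (1.01 ± 0.22, edgeR adjusted p = 0.00117). For msp-63 there were 39 reads in the double deletion and 2 in eri-6[e-f], a ratio of 5.73 (95% counting interval 1.48 to 49.0). The count depended on the eri-6[e-f] libraries: it was 9 without the first, 1 without the third, and also 1 without the first double-deletion library. The highest uncalled value was that of msp-71 (2.06 ± 1.14), and the lowest among members with reads in both strains were those of msp-42 (-0.23) and msp-113 (-0.15). For msp-74 there were 0 reads in the double deletion and 1 in eri-6[e-f], too few for a fold.

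In prg-1; ergo-1 over prg-1; hrde-1, all 33 tested members had a negative log2 fold change in mRNA. Of these 33 members 14 were called lower, where 24.4% of all features were called lower and 4.66% higher, with medians of -0.95 and -0.16. In 32 of 33 members every prg-1; ergo-1 library lay below every prg-1; hrde-1 library, and many log2 fold changes sat close to the limit of -1. The count was 29 with library size alone as the scaling, 7 with a fit of these strains only, and 8 without the third prg-1; hrde-1 library. The most reduced members were the short copy and pseudogenes. The level of msp-74 was 0.126, 0.146 and 0.165 CPM in prg-1; ergo-1, against 0.945, 0.849 and 1.36 CPM in prg-1; hrde-1 (-2.83 ± 0.42, edgeR adjusted p = 1.06e-05). That of msp-42 was 0.377, 0.702 and 0.263 CPM in prg-1; ergo-1, against 2.13, 3.02 and 3.53 CPM in prg-1; hrde-1 (-2.67 ± 0.38, edgeR adjusted p = 5.60e-06). That of msp-71 was 0.439, 0.644 and 0.790 CPM in prg-1; ergo-1, against 2.78, 2.73 and 4.07 CPM in prg-1; hrde-1 (-2.35 ± 0.33, edgeR adjusted p = 4.03e-06). None of these groups overlapped. The smallest differences, not called, were -0.36 for msp-10, -0.55 for msp-76 and -0.63 for msp-78.

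Small RNAs on the family changed in the same direction as its mRNA between most strains. Counts of small RNAs do not separate sense from antisense reads here, and levels are again TMM-scaled CPM. The summed level was 121, 116 and 126 CPM in double-deletion mut-16, against 18.6, 15.9 and 17.1 CPM in the double deletion. It was 108, 111 and 105 CPM in sosi-1 mut-16, against 31.9, 46.5 and 39.4 CPM in sosi-1. It was 49.3, 39.7 and 54.3 CPM in eri-6[e-f] mut-16, against 18.9, 18.5 and 17.7 CPM in eri-6[e-f]. No groups overlapped within a background, and the mean ratios were 7.05, 2.75 and 2.60. Without msp-32, which changed the other way, they were 12.2, 3.48 and 4.19.

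Of 35 members 32 were tested in set 2 small RNA, msp-52, msp-63 and msp-79 having too few reads. In eri-6[e-f] mut-16 over eri-6[e-f], 22 of 32 were called higher and msp-32 lower, where 14.4% of the 15380 features tested were called higher and 40.8% lower. In sosi-1 mut-16 over sosi-1, 27 were called higher and msp-32 lower, against 13.9% and 41.8% of all features. In double-deletion mut-16 over the double deletion, 30 were called higher and msp-32 lower, against 12.3% and 38.8%. The median log2 fold changes of the members were 2.36, 1.90 and 3.72 (3.60 in the double deletion with members at 0 set to their bounds), while those of all features were -0.41, -0.37 and -0.25. For the mean effect 30 were called higher and msp-32 lower, against 13.3% and 41.9%, with medians of 2.69 and -0.33. Scaled to microRNA counts, which numbered 945 to 647163 per library, the 3 backgrounds had 6, 5 and 17 members called higher and the mean effect had 29.

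The small RNA level of msp-81, the highest of the members of coding length 384 nt, was 14.6, 15.1 and 16.1 CPM in double-deletion mut-16, against 0.997, 1.04 and 0.506 CPM in the double deletion. It was 13.1, 11.6 and 10.6 CPM in sosi-1 mut-16, against 2.50, 3.32 and 2.36 CPM in sosi-1. In eri-6[e-f] mut-16 it was 3.92, 3.52 and 7.36 CPM, against 1.04, 0.499 and 0.562 CPM in eri-6[e-f]. The groups were separate in each background, and the log2 fold changes were 4.14 ± 0.25, 2.14 ± 0.22 and 2.75 ± 0.29 (edgeR, highest adjusted p = 1.24e-08). The highest member of all was msp-58, at a mean of 13.48 CPM over the strains despite its shorter coding length, against 12.1 CPM for msp-81 and 7.74 CPM for msp-50. Among the tested members the lowest were msp-53 at 0.339 CPM and the pseudogenes msp-37 and msp-42 at 1.12 and 1.23 CPM.

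Many of the largest small RNA changes were against strains with no read at all. For msp-10 there were 268 reads in double-deletion mut-16 and 0 in the double deletion, at least 57.3-fold higher. For msp-74 there were 94 reads in double-deletion mut-16 and 0 in the double deletion, at least 20.1-fold higher. For msp-31 they were 153 in sosi-1 mut-16 and 0 in sosi-1, at least 29.3-fold higher, and 46 in double-deletion mut-16 and 0 in the double deletion, at least 9.83-fold higher. Reads of msp-31 were uneven among libraries of 1 strain, at 1.88, 0.366 and 1.74 CPM in sosi-1 mut-16. For the pseudogene msp-37 there were 64 reads in sosi-1 mut-16 and 0 in sosi-1, at least 12.3-fold higher, and for msp-53 there were 22 reads in sosi-1 mut-16 and 0 in sosi-1, at least 4.21-fold higher. In eri-6[e-f] mut-16 over eri-6[e-f], msp-76 had 45 reads against 0, at least 13.8-fold higher. There msp-49 had 125 against 1, a ratio of 115 (95% counting interval 20.2 to 4565), and msp-152 had 60 against 2, a ratio of 27.5 (7.29 to 232).

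A few members had small changes in small RNA. That of msp-77 was 2.19, 1.88 and 2.55 CPM in double-deletion mut-16, against 0.285, 0.938 and 0 CPM in the double deletion (2.41 ± 0.44, edgeR adjusted p = 3.57e-05). It was 2.00, 1.61 and 2.06 CPM in sosi-1 mut-16, against 2.62, 2.19 and 1.12 CPM in sosi-1 (-0.04 ± 0.35), and 0.679, 0.794 and 0.723 CPM in eri-6[e-f] mut-16, against 1.04, 0.849 and 0.883 CPM in eri-6[e-f] (-0.32 ± 0.47). Its groups overlapped in sosi-1, and the values in eri-6[e-f] mut-16 were slightly below all those in eri-6[e-f] without passing the test. The mRNA of msp-77 was 14.3, 20.2 and 19.5 CPM in eri-6[e-f] mut-16, against 3.01, 3.90 and 1.21 CPM in eri-6[e-f], and was called higher. Other members with small and uncalled small RNA changes were msp-55 in sosi-1 (0.56 ± 0.59), msp-19 in eri-6[e-f] (0.54 ± 0.73) and msp-53 in the double deletion (0.62 ± 0.90). For the mean effect msp-77, at 0.68 ± 0.25, was the only tested member with no call in either direction.

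Between backgrounds the size of the small RNA effect differed for 17 of 32 members, against 9.58% of all features. The median gap was 2.37, against 0.53 for all features. Of the 17, 14 had their largest effect in the double deletion. For msp-49 the log2 fold changes were 5.27 in the double deletion, 2.06 in sosi-1 and 6.52 in eri-6[e-f]. Its levels were 3.82, 4.42 and 4.36 CPM in double-deletion mut-16, against 0.190, 0.0521 and 0.0562 CPM in the double deletion. They were 4.18, 4.36 and 3.75 CPM in sosi-1 mut-16, against 0.583, 0.982 and 1.37 CPM in sosi-1. The mut-16 levels of the 2 strains were alike, and the sosi-1 libraries all lay above those of the double deletion. With microRNA scaling no member passed the interaction test.

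The small RNA comparisons among the 3 deletion strains again put sosi-1 highest and again share libraries. In the double deletion over sosi-1, 16 of 32 members were called lower, against 8.99% of all features, with medians of -1.65 and 0.02. For msp-10 there were 0 reads in the double deletion and 34 in sosi-1, at least 10.7-fold lower, and for msp-51 there were 3 in the double deletion and 34 in sosi-1, a ratio of 0.0933 (95% counting interval 0.0183 to 0.297). In sosi-1 over eri-6[e-f], 14 were called higher, against 6.87%, with medians of 1.34 and 0.01. There msp-76 had 48 reads in sosi-1 and 0 in eri-6[e-f], at least 13.7-fold higher, msp-49 had 60 in sosi-1 and 1 in eri-6[e-f], a ratio of 51.5 (8.90 to 2067), and msp-55 had 50 in sosi-1 and 2 in eri-6[e-f], a ratio of 21.5 (5.64 to 182). In the double deletion over eri-6[e-f], 1 member was called, against 0.312% of all features called higher: msp-76, with 26 reads in the double deletion and 0 in eri-6[e-f], at least 7.87-fold higher. With microRNA scaling no member was called in these comparisons.

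In prg-1; ergo-1 over prg-1; hrde-1, small RNA on the family was lower. The summed level was 223, 225 and 203 CPM in prg-1; ergo-1, against 605, 573 and 477 CPM in prg-1; hrde-1, a mean ratio of 0.393 (0.335 to 0.472). Of 32 members 24 were called lower, against 16.9% of all features (6.7% higher), with medians of -1.35 and -0.03, whereas with microRNA scaling, which moved the median of all features to 1.23, no member was called. In 30 of 32 members the libraries did not overlap. For msp-58 the levels were 17.9, 25.2 and 18.3 CPM in prg-1; ergo-1, against 72.1, 73.2 and 48.4 CPM in prg-1; hrde-1 (-1.69 ± 0.19, edgeR adjusted p = 1.34e-07). The largest differences were those of the pseudogene msp-37 (-2.73 ± 0.63), msp-74 (-2.56 ± 0.50) and msp-31 (-2.09 ± 0.54). For msp-31 the levels were 5.81, 5.67 and 4.24 CPM in prg-1; ergo-1, against 20.2, 21.04 and 25.2 CPM in prg-1; hrde-1. The smallest, not called, were those of msp-33 (-0.88 ± 0.22) and msp-55 (-0.33 ± 0.50).

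The copy msp-32, on chromosome II with a coding length of 360 nt, went against the family in small RNA. Its small RNA level was 0.148, 0.123 and 0.118 CPM in double-deletion mut-16, against 7.31, 6.72 and 7.81 CPM in the double deletion. It was 0.303, 0 and 0.0858 CPM in sosi-1 mut-16, against 6.20, 8.61 and 9.94 CPM in sosi-1. It was 0, 0.104 and 0.0657 CPM in eri-6[e-f] mut-16, against 6.78, 7.54 and 6.58 CPM in eri-6[e-f]. The mut-16 libraries were near 0 in all 3 backgrounds and the libraries without mut-16 all lay above 6 CPM. By edgeR the log2 fold changes were -5.73 ± 0.52 (adjusted p = 1.07e-09), -5.91 ± 0.51 (3.37e-10) and -6.55 ± 0.64 (2.68e-09), and the mean was -6.06 ± 0.32 (2.41e-14). The difference between backgrounds did not pass the interaction test (gap 0.83, edgeR adjusted p = 0.851).

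In the deletion strains msp-32 was the largest single source of small RNA on the family. It took 42.4% of the family's small RNA in the double deletion, 21.03% in sosi-1 and 37.9% in eri-6[e-f]. No difference between these strains passed the test, with log2 fold changes of -0.18 ± 0.35 in the double deletion over sosi-1 and 0.06 ± 0.35 in the double deletion over eri-6[e-f]. The value for sosi-1 over eri-6[e-f] was 0.24 ± 0.35. In prg-1; ergo-1 it had 1.36, 1.89 and 1.52 CPM, against 2.45, 0.445 and 0.677 CPM in prg-1; hrde-1, groups that overlap (0.38 ± 0.47). Without the first prg-1; hrde-1 library, which holds the 2.45 CPM, the log2 fold change was 1.55 and was called higher. Its mRNA was 0 to 0.244 CPM in the 24 libraries, with 0 in all 3 eri-6[e-f] libraries, so no mRNA change could be tested.

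**Figure D4:**
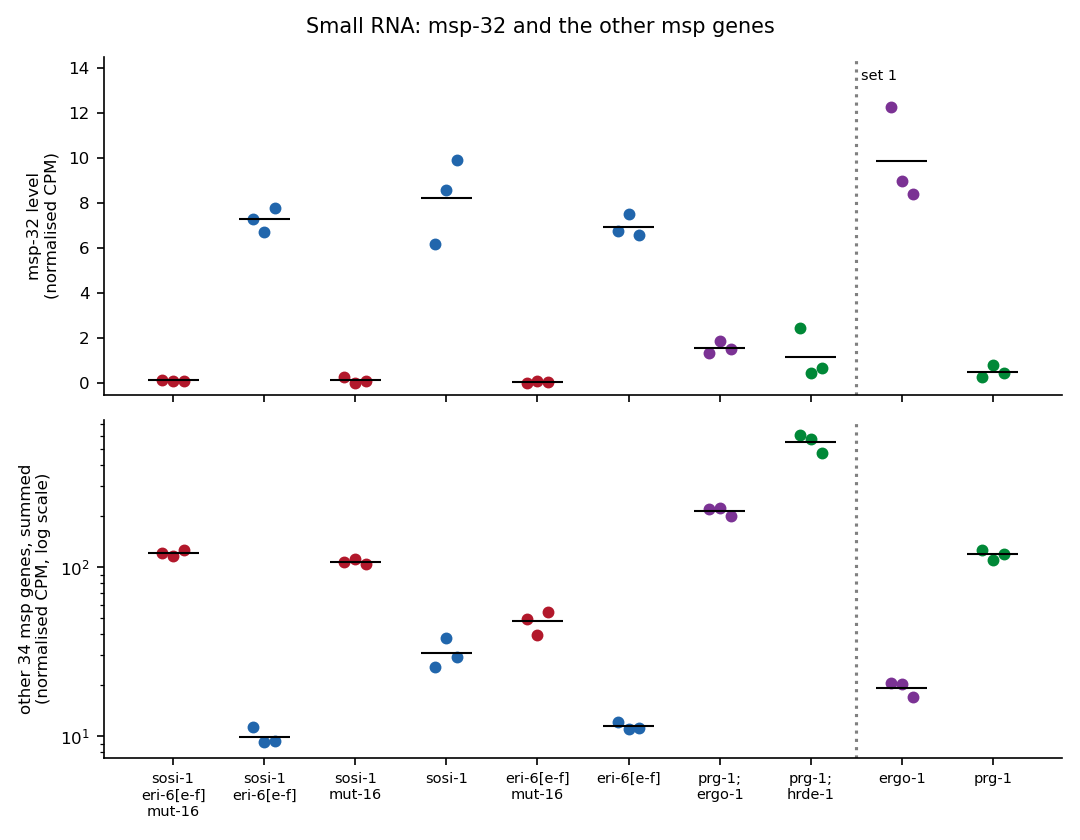
Level of msp-32 small RNA in each library, in normalised CPM (top), and the summed small RNA level of the other msp genes, in normalised CPM on a log axis (bottom), by strain. Points are libraries. For msp-32, deletion strains and ergo-1 stand between about 6 and 12.3 CPM, mut-16 strains and prg-1 stay below 1 CPM, and the prg-1 double mutants are at 0.445 to 2.45 CPM.

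In set 1, ergo-1 animals had less small RNA on the family than prg-1 animals. Their summed levels were 32.8, 29.4 and 25.5 CPM in ergo-1, against 127, 110 and 120 CPM in prg-1, a mean ratio of 0.245 (0.200 to 0.298), or 0.163 without msp-32. Of 26 members tested 23 were called lower and msp-32 higher, where 15.6% of the 11746 features tested were called lower and 30.4% higher. The medians were -3.0 for the members and 0.04 for all features. The level of msp-58 was 2.11, 2.47 and 2.99 CPM in ergo-1, against 14.8, 10.2 and 18.6 CPM in prg-1 (-2.50 ± 0.24, edgeR adjusted p = 7.51e-07). That of msp-57 was 2.69, 2.40 and 1.65 CPM in ergo-1, against 8.25, 9.11 and 8.93 CPM in prg-1. Both were separate between the groups, as were 22 of the 23 members called lower.

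The largest set 1 reductions were in low-count members. For msp-31 there were 2 reads in ergo-1 and 54 in prg-1, a ratio of 0.0284 (95% counting interval 0.00336 to 0.108). For msp-152 there were 3 reads in ergo-1 and 72 in prg-1, a ratio of 0.0320 (0.00644 to 0.0972). The opposite call was again msp-32, at 12.3, 8.99 and 8.43 CPM in ergo-1, against 0.306, 0.835 and 0.442 CPM in prg-1 (4.14 ± 0.30, edgeR adjusted p = 6.19e-08). It made up 33.9% of the family's small RNA in ergo-1. For msp-77 the levels overlapped, at 3.27, 2.54 and 2.44 CPM in ergo-1, against 3.26, 3.49 and 2.12 CPM in prg-1 (-0.11 ± 0.25), and msp-55 was not called (0.13 ± 0.72).

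One pair of neighbours had its small RNA reads on different members in the 2 sets. In set 1, msp-79 small RNA was 0.218, 0.137 and 0 CPM in ergo-1, against 4.28, 4.10 and 4.69 CPM in prg-1 (-5.16 ± 0.44, edgeR adjusted p = 2.61e-07), while msp-78 was at 0 in every prg-1 library. In set 2 the counts lay the other way: in prg-1; hrde-1, msp-78 had 24.2, 18.6 and 18.4 CPM and msp-79 had 0 in each library. The mRNA of the pair was alike, at 93.35, 90.04 and 150 CPM for msp-78 and 85.7, 79.8 and 135 CPM for msp-79 in prg-1; hrde-1. The sets also differ in strains, and whether the 2 genes share these reads was not tested. The small RNA value of either gene is best read beside that of the other.

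Calls of the 2 assays were also set side by side. For the mean mut-16 effect 33 members were called higher in mRNA and 30 in small RNA, and 29 were in both lists. All 33 members tested in mRNA were called, so the small RNA calls alone fixed this overlap. In prg-1; ergo-1 over prg-1; hrde-1, 14 were called lower in mRNA and 24 in small RNA, and 10 were in both. That is 10 of 14 mRNA calls, where 24 of 32 tested members were called in small RNA. The share of all features called in both assays was not computed, so neither overlap is a measure of agreement between assays. Across the 35 members, mean mRNA and mean small RNA levels had a Spearman rank correlation of 0.591 in set 2, a description across genes that share reads. Between set 2 mRNA and set 1 small RNA, which come from different strains, it was 0.305, or 0.396 without msp-32.

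Other genes of the MSP pathway were followed by lists chosen for their roles. MSP-domain relatives (the msd and ssp genes and vpr-1, a VAP homologue whose MSP domain is secreted) included 14 of 18 called higher for the mean mut-16 effect in mRNA, against 13.2% of all features, with a median of 2.27. The highest with reads in every background was ssp-19 at 4.16 ± 0.18, and the lowest were ssp-28 (-0.67 ± 0.27) and ssp-37 (-0.58 ± 0.14). The summed mRNA of the relatives did not rise in every background. It averaged 380.4 CPM in double-deletion mut-16, against 380.9 CPM in the double deletion. It was 415.8 CPM in sosi-1 mut-16, against 265.9 CPM in sosi-1, and 388.7 CPM in eri-6[e-f] mut-16, against 213.9 CPM in eri-6[e-f]. The relative msd-1 averaged 1.39 CPM in double-deletion mut-16, 4.89 CPM in sosi-1 mut-16 and 2.82 CPM in eri-6[e-f] mut-16, against 0, 0.129 and 0 CPM in the matching strains without mut-16. Those 2.82 CPM rest on 1 eri-6[e-f] mut-16 library of 8.47 CPM.

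Genes of the fibrous body and of sperm gene control were called higher in 6 of 14 for the mean mut-16 effect, against 13.2% of all features, with a median of 0.63. These included the Argonaute alg-3 of spermatogenic 26G-RNAs (2.38 ± 0.18) and the sperm protein phosphatase gsp-3 (2.31 ± 0.14). The lowest were spe-5, a vacuolar ATPase subunit (-0.38 ± 0.12), and elt-1, a GATA factor (0.09 ± 0.16). Summed mRNA of this list averaged 219.3 CPM in double-deletion mut-16, against 162.4 CPM in the double deletion. It was 134.4 CPM in sosi-1 mut-16, against 157.5 CPM in sosi-1, and 166.8 CPM in eri-6[e-f] mut-16, against 86.51 CPM in eri-6[e-f]. Of genes for reception of MSP in the oocyte and gonadal sheath, 1 of 17 was called higher for the mean effect, against the same 13.2%, with a median of 0.27. The single backgrounds went different ways. In eri-6[e-f] 7 of 17 were called higher (median 0.53), against 16.2% of all features. In the double deletion 6 were called higher and 1 lower (0.51), against 28.1% and 22.1% of all features. In sosi-1 2 were called lower (-0.49), against 3.24%. The gene called for the mean was lin-41, a regulator of oocyte maturation (1.27 ± 0.20), which averaged 511 CPM in double-deletion mut-16, against 80.8 CPM in the double deletion, but 177 CPM in sosi-1 mut-16, against 381 CPM in sosi-1. The adaptor dab-1 had 0.77, the GTPase ran-1 -0.35 and the G protein subunit gsa-1 -0.31, none of them called.

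Most other sperm genes, named spe, fer, ssq or nspd with peel-1 and trp-3, were also called higher with mut-16. Of 49 tested, 36 were called higher for the mean mut-16 effect, against 13.2% of all features, with a median of 1.82, against 2.51 for msp members. The highest were spe-41, a sperm calcium channel (3.06 ± 0.18), and nspd-10 (3.04 ± 0.20), and the lowest were spe-5 and spe-38, a membrane protein needed for fertilisation (-0.33 ± 0.38). Their summed mRNA was 2.23, 2.06 and 2.70 times as high with mut-16 as without it in the double deletion, sosi-1 and eri-6[e-f], against 6.77, 3.53 and 8.35 times for the msp genes. By gene, the median log2 fold changes were 1.9, 1.32 and 2.15, against 2.74, 1.72 and 3.11 for msp members. Abundant genes weigh most in the sum of the other sperm genes, which also holds genes not called higher, such as spe-5. As a percentage of that sum, msp mRNA averaged 145% in double-deletion mut-16 against 49.0% in the double deletion, and 168% in sosi-1 mut-16 against 97.9% in sosi-1. It was 155% in eri-6[e-f] mut-16 against 52.2% in eri-6[e-f]. In prg-1; ergo-1 it was 192%, against 188% in prg-1; hrde-1, where 38 of 49 other sperm genes were called lower with a median of -1.38. In that comparison, where 24.4% of all features were called lower and 4.66% higher, 10 of 18 MSP-domain relatives were called lower and ssp-37 higher (1.01), and 5 of 14 genes of the fibrous body list were called lower and fog-1, which directs germ cells to sperm, higher (1.13). Of the reception list, lin-41 (1.35), oma-2 (1.16) and oma-1 (1.03), regulators of oocyte maturation, were called higher there.

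**Figure D5:**
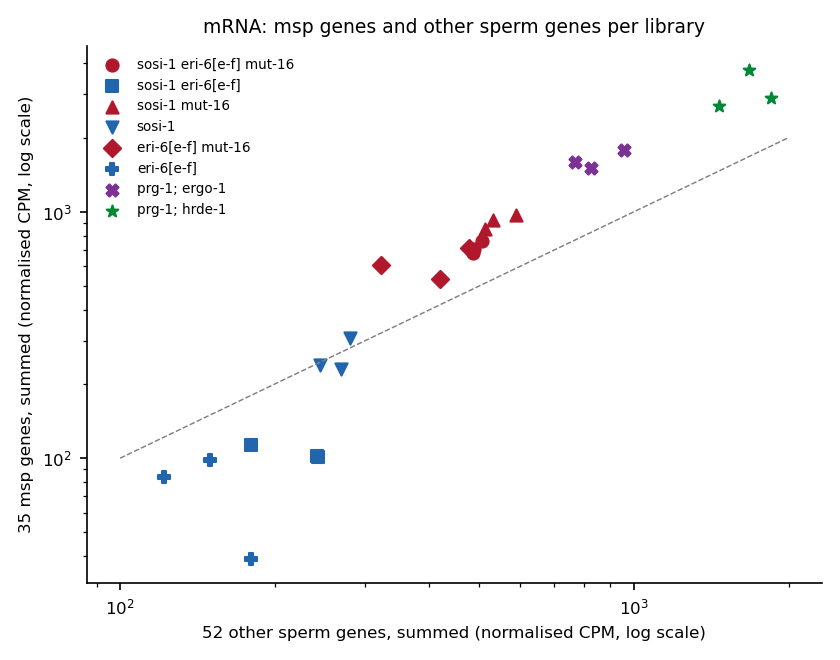
Summed mRNA of the 35 msp genes (vertical) against that of 52 other sperm genes (horizontal) in each of 24 libraries, both in normalised CPM on log axes. Each symbol is a library, coloured by strain. The libraries of the double deletion and of eri-6[e-f] sit lowest on both axes and the prg-1; hrde-1 libraries highest.

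In small RNA the lists behaved less evenly. For the mean mut-16 effect, 33 of 50 tested other sperm genes were called higher and 5 lower (median 2.46), against 13.3% and 41.9% of all features. Their summed small RNA was 1.15, 1.00 and 0.803 times that without mut-16 in the double deletion, sosi-1 and eri-6[e-f]. Of the MSP-domain relatives, 14 of 17 were called higher and 2 lower, against the same shares of all features, with a median of 3.34. In set 1, 15.6% of all features were called lower and 30.4% higher in ergo-1 over prg-1. There 32 of 43 other sperm genes were called lower and 3 higher (median -2.82), and 11 of 12 MSP-domain relatives were called lower (median -3.42).

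Markers of other cell types also moved between strains, in different ways in the 3 backgrounds. With mut-16 in eri-6[e-f], 8 of 15 oocyte markers (median 1.24) and 6 of 14 germ cell markers (0.59) were called higher, against 16.2% of all features, and 4 of 8 muscle (-1.08), 3 of 11 intestine (-0.69) and 1 of 10 neuron markers (-0.10) lower, against 9.48%. With mut-16 in sosi-1, 3 of 15 oocyte (-0.72), 3 of 11 intestine (-0.72) and 1 of 14 germ cell markers (-0.56) were called lower, against 3.24% of all features, and no marker of these lists higher. With mut-16 in the double deletion, 6 of 15 oocyte markers were called higher and 1 lower (0.02), 8 of 14 germ cell markers higher and 3 lower (1.10), 5 of 10 neuron markers higher (1.04), 1 of 8 muscle markers higher and 6 lower (-1.48), and 1 of 11 intestine markers lower (0.04), against 28.1% of all features higher and 22.1% lower. For the mean mut-16 effect in mRNA, 13.2% of all features were called higher and 4.7% lower. There 1 of 15 oocyte markers (median 0.14) and 1 of 10 neuron markers (0.36) were called higher. Lower calls were 1 of 11 intestine markers (-0.48) and 2 of 8 muscle markers (-0.74). The 14 markers of dividing and meiotic germ cells had a median of 0.44. In sosi-1 over eri-6[e-f], 9 of 15 oocyte markers (1.55), 7 of 14 germ cell markers (0.92) and 2 of 10 neuron markers (0.33) were called higher, against 20.2% of all features, and 5 of 8 muscle markers (-1.34) and 1 of 11 intestine markers (-0.43) lower, against 13.3%. In the double deletion over sosi-1, 24.7% of all features were called lower and 17% higher. There 6 of 10 neuron markers (-1.11) and 2 of 11 intestine markers (-0.32) were called lower. Oocyte markers had 3 of 15 lower and 2 higher (-0.19), and germ cell markers 4 of 14 lower and 3 higher (-0.79). Muscle markers had 1 of 8 lower and 2 higher (0.82). In the double deletion over eri-6[e-f], 8 of 15 oocyte markers (1.07) and 1 of 14 germ cell markers (0.45) were called higher, against 8.72% of all features. Lower calls there were 4 of 10 neuron (-0.88), 3 of 8 muscle (-0.74) and 2 of 11 intestine markers (-0.89), against 10.4%. In prg-1; ergo-1 over prg-1; hrde-1, 9 of 15 oocyte markers were called higher (median 1.04), as were 6 of 11 intestine and yolk markers (2.20), against 4.66% of all features. There 3 of 10 neuron markers were called lower (-0.76) and 1 intestine marker, where 24.4% of all features were called lower. The medians were 0.51 for the germ cell list and -0.02 for the muscle list. The oocyte list summed to 4799 to 7915 CPM in prg-1; ergo-1, against 3047 to 3986 CPM in prg-1; hrde-1. The intestine list summed to 29960 to 55060 CPM in prg-1; ergo-1, against 7859 to 9428 CPM in prg-1; hrde-1. No marker in these lists was at 0 in any strain, and their part in the msp differences was not tested.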

How the data were processed

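The files the authors deposited hold expected counts, the reads estimated to belong to each gene name in a library, without normalization. Per the submitters' processing notes the tools were cutadapt, HISAT2 and Salmon. No source used here gives their versions or roles, the genome build, the annotation or whether counting used strand, although the mRNA kit is directional per the labels' protocols. Entries that repeat a name were summed, which touched no msp gene, and counts were rounded. Of the names, 45682 of 46003 in set 2 and 45588 of 45904 in set 1 matched the RefSeq gene table.

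Counts were analysed in R 4.3.3 with edgeR 4.0.16: filterByExpr by strain, TMM scaling, and quasi-likelihood fits with 1 term per strain over the 24 libraries of each set 2 assay (15376 features in mRNA, 15380 in small RNA) and the 6 of set 1 (11746). P-values were adjusted over all features of a comparison by Benjamini and Hochberg. The 9 mRNA and 10 small RNA comparisons include a mean of the 3 mut-16 effects and a test of their difference. Scripts were tested on simulated data. DESeq2 1.42.0, other scalings, no filter, a replicate block, fits of only the strains compared and each library left out were tried as alternatives. Plots were drawn with matplotlib 3.10.9.

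The labels number 3 libraries per strain without saying that they are separate cultures, so p-values measure only the spread between these samples, which may be technical. The median member had 309 reads per mRNA library, 25 per set 2 small RNA library and 12 per set 1 library, and 3.69%, 14.6% and 23.8% of member values were 0. Where 1 group had no read, a fold is a lower bound computed with 3 counts over the group, and with 1 to 3 counts it is a ratio with an exact 95% interval, both for counting error only.

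Members named in the text are the 3 highest and 3 lowest in mean level per assay, the 3 highest and 3 lowest log2 fold changes of each comparison, members called against the rest, pseudogenes, and the 2 highest and 2 lowest genes of each partner list by mean mut-16 mRNA effect. Genes msp-40, msp-77 and msp-78 were also described after their values were seen, as were lin-41, oma-1, oma-2, fog-1 and ssp-37 in the prg-1 pair. The partner and marker lists overlap in part: 7 genes of the fibrous body list are also among the other sperm genes. Members and lists were chosen with earlier results of these data known, so their counts are descriptions, read beside the share of all features called.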

Additional observations from a re-analysis of the deposited data

Results flagged for a closer look

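The mut-16 effect on mRNA differed between the 3 deletion backgrounds, by the interaction test of edgeR, for 21 of 33 msp genes, where 60.1% of all features passed the same test. Among members that passed, the widest gaps between the highest and lowest log2 fold change were 2.57 for msp-63 (2.30 in the double deletion, 2.17 in sosi-1 and 4.74 in eri-6[e-f]), 2.51 for msp-65 and 2.32 for msp-58 (2.63, 1.02 and 3.35). The value of msp-63 rests on 2 reads in eri-6[e-f].

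In small RNA 17 of 32 members passed the interaction test, against 9.58% of all features. Among those the widest gaps were 7.10 for msp-10 (9.11 in the double deletion, 2.23 in sosi-1 and 2.01 in eri-6[e-f]), 5.48 for msp-76 (2.69, 1.65 and 7.13) and 4.46 for msp-49. The first of these rests on 0 reads in the double deletion and had an edgeR adjusted p of 0.0469, and the second on 0 reads in eri-6[e-f] with an adjusted p of 0.000932, so both fitted gaps depend on how a count of 0 is treated.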

How the results depend on the processing

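No direction of a called member was reversed by any setting tried. Of the counts and sums the text leads with, 479 stayed within the limits of 1.5 times (for counts) or 1 SD (for sums) and 41 moved out of them. With 1 library left out at a time, members called higher with mut-16 in mRNA numbered 30 to 31 in eri-6[e-f], 28 to 29 in sosi-1 and 32 in the double deletion, and 32 to 33 for the mean. Further mRNA ranges were 16 to 24 in the interaction test, 19 to 27 called lower in the double deletion over sosi-1, 28 to 31 called higher in sosi-1 over eri-6[e-f], 1 to 9 called higher in the double deletion over eri-6[e-f] and 8 to 16 called lower in prg-1; ergo-1 over prg-1; hrde-1. In small RNA, the double deletion over eri-6[e-f] had 1 to 2 called higher and 0 to 2 lower, and prg-1; ergo-1 over prg-1; hrde-1 had 0 to 1 higher. The 1 is msp-32 without the first prg-1; hrde-1 library, an alternative chosen after seeing the data. That alternative also called 1 member higher in small RNA of the double deletion over sosi-1.

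With library size as the only scaling, 1 member was called higher in mRNA of the double deletion over eri-6[e-f] and 29 lower in prg-1; ergo-1 over prg-1; hrde-1. That scaling moved the median mRNA change of all features from 0.09 to 0.64 for mut-16 in the double deletion and from -0.17 to -0.75 for the double deletion over sosi-1. Summed mRNA became 75.2 CPM in the double deletion, 1031 CPM in sosi-1 mut-16 and 4149 CPM in prg-1; hrde-1. Summed small RNA became 144 CPM in double-deletion mut-16, 128 CPM in sosi-1 mut-16, 19.5 CPM in eri-6[e-f], 162 CPM in prg-1; ergo-1, 392 CPM in prg-1; hrde-1 and 107 CPM in prg-1. Fits of only the strains compared called 0 of 29 and 7 of 33 tested members in those mRNA comparisons. In small RNA of the double deletion over eri-6[e-f] such a fit tested only 10 members, against 32 in the main fit. It called 0 higher and 1 lower.

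Scaling set 2 small RNA to microRNA counts left 6, 5 and 17 members called higher with mut-16 in eri-6[e-f], sosi-1 and the double deletion, and 0 in the interaction test, in the 3 comparisons among strains without mut-16 and in the prg-1 pair. With no filter on low counts, small RNA calls were 2 lower with mut-16 in the double deletion, 27 in the interaction test, 1 higher in the double deletion over sosi-1, 3 lower in the double deletion over eri-6[e-f], 1 lower in sosi-1 over eri-6[e-f] and 2 higher in ergo-1 over prg-1. DESeq2 called 4 lower in small RNA of the double deletion over eri-6[e-f], where 4 of 32 members had no adjusted p. The cause of these shifts was not tested.

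Replicate numbers did not pair the libraries: deviations of same-numbered libraries correlated at -0.431 to 0.354 in mRNA and -0.132 to 0.1 in small RNA. A replicate block called 1 member, msp-53, higher in small RNA of the double deletion over sosi-1, and moved no other count by more than 1.5 times. It gave 31, 29 and 32 mRNA members higher with mut-16 in eri-6[e-f], sosi-1 and the double deletion, as without the block. Merging members with identical proteins was not run, since no protein sequences were used here. Depth limits the rare members, above all in small RNA.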
